A study of Mus musculus with 6 samples.

Results

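BMP signalling and the Id genes were followed in mouse epidermis through 10 genes, taken by symbol from the deposited expression table of 30386 genes. They were the Id genes Id1, Id2, Id3 and Id4, the ligand genes Bmp2, Bmp4 and Bmp7, the receptor gene Bmpr1a, and the inhibitory Smad genes Smad6 and Smad7. All 10 were in the table, and 9 reached the minimum for testing, a mean of 10 CPM (counts scaled to a common library total) over the libraries. Back skin epidermis, taken at E18.5, was compared between wild type (WT, 3 libraries) and the genotype labelled p63alphaKO (3 libraries), with the epidermis parted from the dermis by Dispase. The labels give no treatment, strain or description of the allele. They do not say whether libraries of a group came from separate embryos, so p-values measure the spread between these libraries, which may be technical. Reads came from the 3' ends of mRNAs, and values are given as CPM or as log2 fold changes, p63alphaKO relative to WT, computed from log2(CPM + 1).

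BMPs are secreted ligands of the TGF-beta superfamily. They join type I receptors, such as BMPR1A, with type II receptors, and the type I receptor phosphorylates SMAD1, SMAD5 and SMAD9, which enter the nucleus with SMAD4. The Id genes are textbook targets of this signal. Their products have a helix-loop-helix domain without a basic region, bind the E proteins encoded by Tcf3, Tcf4 and Tcf12, and keep these from DNA. SMAD6 and SMAD7 are induced by the pathway and feed back on it. In skin, BMP signalling takes part in the choice between epidermal and other fates, in hair follicle formation and in the differentiation of keratinocytes.

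The sequences before the start sites of Id2, Id4 and Id3 are shown because Id2 was the gene of the set that passed the test, Id4 the other one whose groups did not overlap, and Id3 a family member whose groups overlapped. Each is the 250 bases before the RefSeq start on GRCm38.p6, read 5' to 3' on the gene's strand. The gene spans given further below are from GENCODE M21. For Id2, Id3 and Bmpr1a those spans begin upstream of the RefSeq start, so the windows of these genes fall within them. Capitals mark GGCGCC, a GC-rich element that BMP-activated Smads are known to bind, and CAGAC or its complement GTCTG, the Smad box.
Id2 (chr12:25096093-25096342, minus strand): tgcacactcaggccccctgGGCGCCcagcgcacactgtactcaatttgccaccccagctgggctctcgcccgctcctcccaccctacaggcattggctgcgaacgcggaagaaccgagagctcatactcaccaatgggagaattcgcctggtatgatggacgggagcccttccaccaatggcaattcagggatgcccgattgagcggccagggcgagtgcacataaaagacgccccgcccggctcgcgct
Id4 (chr13:48260866-48261115, plus strand): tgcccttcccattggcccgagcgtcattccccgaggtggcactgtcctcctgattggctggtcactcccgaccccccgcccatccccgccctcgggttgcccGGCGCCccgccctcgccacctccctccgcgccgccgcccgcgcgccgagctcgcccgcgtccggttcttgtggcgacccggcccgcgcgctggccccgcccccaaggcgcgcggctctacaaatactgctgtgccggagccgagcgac
Id3 (chr4:136143572-136143821, plus strand): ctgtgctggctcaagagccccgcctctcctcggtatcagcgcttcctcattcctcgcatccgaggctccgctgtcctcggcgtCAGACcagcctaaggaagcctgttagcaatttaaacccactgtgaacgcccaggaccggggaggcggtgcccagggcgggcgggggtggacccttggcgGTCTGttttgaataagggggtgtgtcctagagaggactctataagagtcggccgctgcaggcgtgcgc
RefSeq promoters were at hand for 6 of the 10 genes (Id2, Id3, Id4, Bmp4, Bmpr1a and Smad6). GGCGCC, which reads the same on both strands, was found once each before Id2 (starting 231 bases upstream of the start), Id4 (148 bases) and Bmpr1a (198 bases), and in 9.59% of all 32851 such windows. Windows with at least 60% G and C, as all 6 of these have, held it in 26.1% of 9178 cases. The Smad box was found 2 times before Id3, at 167 and 68 bases, in none of the other 5 windows, and in 42.2% of all windows and 38.6% of those with at least 60% G and C. The spacing of the p53-family site, 2 copies of CNNG with 6 bases between them, was absent from the Id2 window, present 5 times before Id4 and 2 times before Id3, and found in 63.5% of all windows and 91.9% of those with at least 60% G and C. These matches describe letters only.

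The libraries held between 2564407 and 4474764 reads, so that 10 CPM stood for 25.7 to 44.8 reads. Trp63, the gene that encodes p63, was at 63.9, 71.7 and 87.2 CPM in WT replicates 1, 2 and 3 and at 143, 146 and 136 CPM in p63alphaKO replicates 1, 2 and 3. It was called higher (log2 fold change 0.93, limma adjusted p = 0.0192). A count per gene does not tell its isoforms apart, so it says nothing on whether alpha forms were lost. The keratinocyte genes Krt5, Krt14, Krt1 and Krt10 were abundant in all 6 libraries, with a sum over 9 keratinocyte markers between 71953 and 90044 CPM. Several lists of markers for other cells had sums that did not overlap between the groups, most of them lower and 1 higher in p63alphaKO. Fibroblast and dermis markers summed to between 2058 and 4758 CPM in the WT libraries against 252 to 589 CPM in the p63alphaKO libraries, and all 8 tested of the 11 were called lower. Skeletal muscle markers summed to between 413 and 2539 CPM in the WT libraries against 53.9 to 101 CPM in the p63alphaKO libraries, and 6 of 7 tested were called lower. Erythroid markers summed to between 1903 and 3440 CPM against 559 to 1766 CPM. Of 4 tested, 3 were called lower by limma and 0 by edgeR or DESeq2. The 8 endothelial markers, all under the minimum for testing, summed to between 22.3 and 53.4 CPM in the WT libraries against 4.48 to 7.86 CPM in the p63alphaKO libraries, where Tek, Emcn and Plvap were at 0 in all 3 libraries. Tek had only 3, 1 and 0 reads in WT replicates 1, 2 and 3, so its counts of 0 cannot show a difference. Pericyte and smooth muscle markers summed to between 23.2 and 36.5 CPM in WT and to between 11.9 and 20.3 CPM in p63alphaKO, where 0 of 1 tested was called. Melanocyte markers went the other way, with sums between 194 and 310.4 CPM in WT and between 321 and 455 CPM in p63alphaKO, and 0 of 3 tested were called by limma, with Dct called higher by DESeq2. Sums of immune markers overlapped, from 15.2 to 31.5 CPM in WT and from 7.45 to 17.2 CPM in p63alphaKO, with Trdc and Cd3e at 0 throughout. Follicle sums (196 to 361 CPM and 302 to 347 CPM) and Merkel and nerve sums (6.24 to 17.9 CPM and 6.20 to 11.1 CPM) overlapped too. Within the follicle list, single genes moved in opposite directions. Sox9, the most abundant, was higher in every p63alphaKO library (225 to 238 CPM, against 132 to 172 CPM in WT), while Foxn1 and Lef1 were lower in every one. Of 4 tested, 0 were called by limma or edgeR, with 1 higher and 1 lower by DESeq2. The part of these cells in the results that follow was not tested. In bulk samples, fewer cells of a type and less RNA per cell cannot be told apart.

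**Figure D1:**
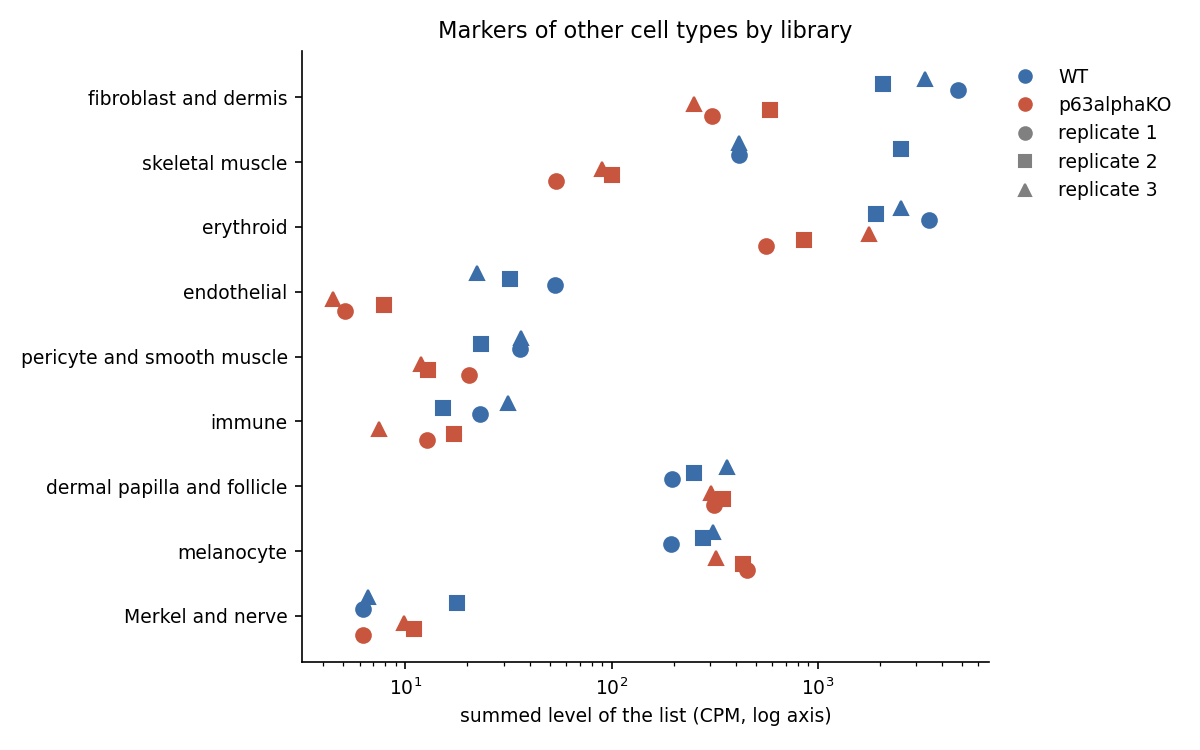
Summed CPM (horizontal log axis) of 9 lists of markers for other cell types, 1 point per library, blue for WT and red for p63alphaKO, with the shape giving the replicate. The fibroblast, skeletal muscle, erythroid, endothelial and pericyte sums lie lower in p63alphaKO without overlap, the melanocyte sums lie higher without overlap, and WT replicate 1 has the highest fibroblast sum (4758 CPM) and endothelial sum (53.4 CPM).

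Among the Id genes, Id2 was lower in p63alphaKO, Id4 lay lower in every p63alphaKO library without passing the test, and Id1 and Id3 overlapped between the groups. Of the 9 tested genes of the whole set, 1 was called, the lower Id2, at an adjusted p under 0.05 (limma, Benjamini-Hochberg). Over all 7464 tested genes 1.65% were called, and 1.18% were called lower. The 123 calls, 35 higher and 88 lower, became 47 higher and 65 lower with TMM scaling and 69 higher and 64 lower with upper quartile scaling. None of the 9 was called higher by limma, edgeR or DESeq2. At an unadjusted p under 0.05 (limma) 0 were higher and 2 lower, Id2 and Id4, beside 1166 of all 7464 tested genes in either direction (15.6%). The 9 fold changes had a median of -0.16 on the log2 scale, with 2 above and 7 below 0, beside a median of -0.085 over all tested genes.

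Id2 (ENSMUSG00000020644, chromosome 12, 25093799 to 25097140, minus strand, mm10), an inhibitor of E proteins that is also needed for several lymphoid and dendritic cells of skin, was at 93.9, 66.8 and 44.4 CPM in WT replicates 1, 2 and 3. It was at 31.9, 20.7 and 31.9 CPM in p63alphaKO replicates 1, 2 and 3. Every p63alphaKO library lay below every WT library, and the WT libraries themselves spread over a wider range than the gap between the groups. The means were 68.4 ± 24.8 CPM in the WT libraries against 28.2 ± 6.48 CPM in the p63alphaKO libraries (SD, n = 3 each), which is -1.21 as a log2 fold change (SE 0.28, 95% interval -1.81 to -0.61, limma adjusted p = 0.0456), or 2.32-fold lower. These levels rest on 681 reads in WT and 291 in p63alphaKO. Counting alone would give an SD of 4.67 and 2.86 CPM, below the observed spread in both groups.

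The Id2 call lay close to the threshold, while its direction and size were steadier. It was called by DESeq2 on the recovered reads (adjusted p = 0.0123, with 2.21% of tested genes called lower by that tool) and not by edgeR (adjusted p = 0.0851, 0.817% called lower). With rescaled libraries the adjusted p was 0.0805 (TMM) and 0.0834 (upper quartile), and without a filter on low genes it was 0.0697. Without WT replicate 1 or 2, or p63alphaKO replicate 1, 2 or 3, it was 0.0954, 0.0907, 0.101, 0.151 and 0.140, and without WT replicate 3 it was 0.00989. Over these and the other settings the log2 fold change stayed between -1.49 and -0.95.

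**Figure D2:**
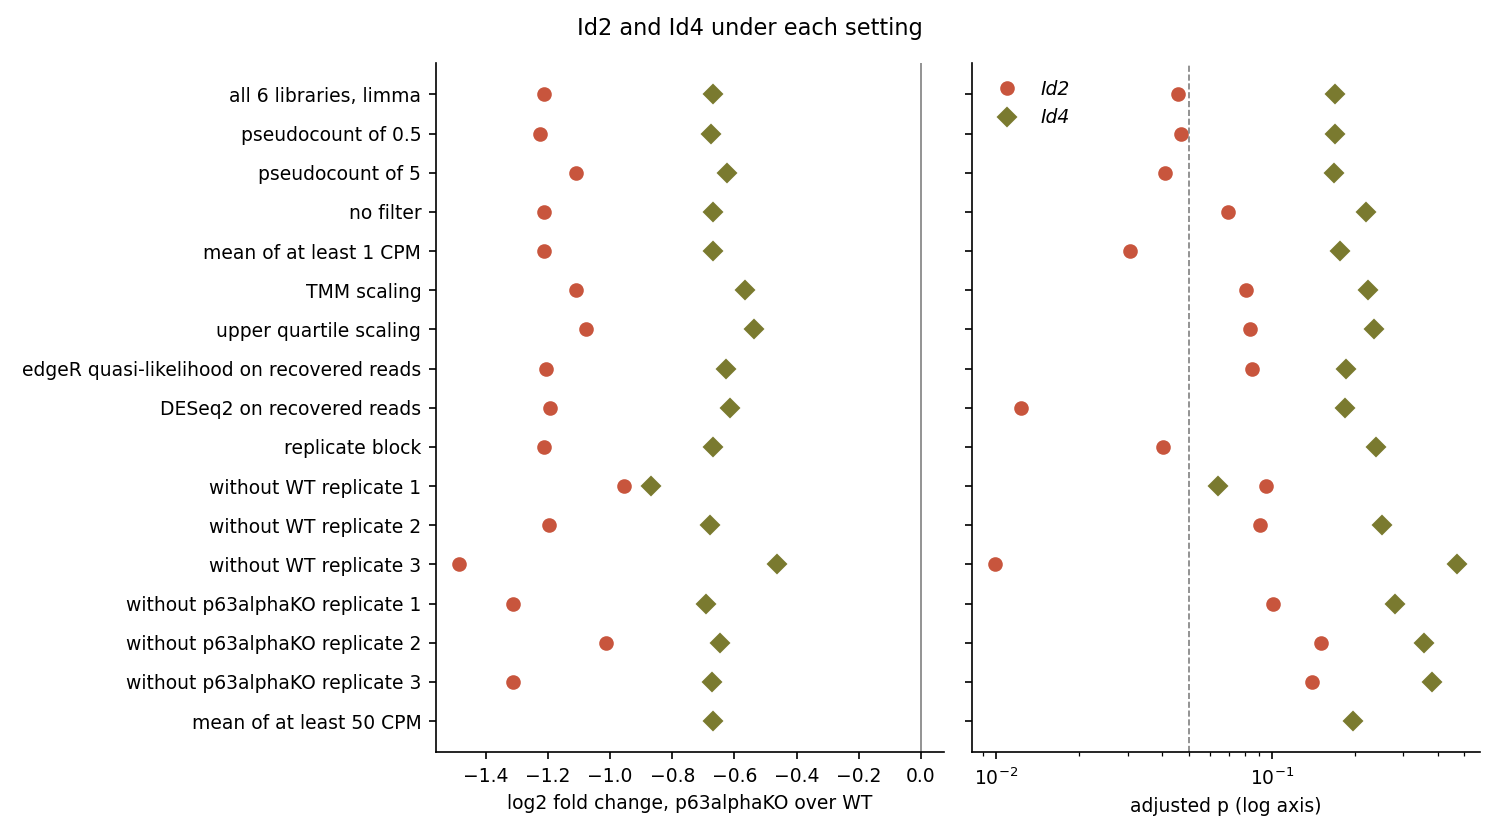
Log2 fold change (left) and adjusted p on a log axis (right) of Id2 (circles) and Id4 (diamonds) for the fit to all 6 libraries and each alternative, with a dashed line at 0.05. Both genes stay below 0 in log2 fold change in each setting shown, and Id2 lies on either side of the dashed line while Id4 lies to its right throughout.

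Marker sums of other cells stood beside these Id2 values as follows, replicates 1, 2 and 3 in order. The fibroblast sum was 4758, 2058 and 3289 CPM in the WT libraries, against 307, 589 and 252 CPM in p63alphaKO. The endothelial sum was 53.4, 32.2 and 22.3 CPM in WT, in the same order as Id2, and 5.07, 7.86 and 4.48 CPM in p63alphaKO, where replicate 2 was highest and Id2 lowest. The immune sum was 23.0, 15.2 and 31.5 CPM in the WT libraries, against 12.7, 17.2 and 7.45 CPM in p63alphaKO. Within that list Ptprc and Tyrobp were lower and Cd74 was higher in every p63alphaKO library, all under 10 CPM, and the Langerhans cell marker Cd207 was above 0 in WT replicate 3 alone. The part of these cells in the Id2 result was not tested.

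Id4, another inhibitor of E proteins (chromosome 13, 48261228 to 48266026, plus strand), was at 49.1, 64.1 and 86.9 CPM in the WT libraries, against 41.8, 39.0 and 40.6 CPM in the p63alphaKO libraries, replicates in order. The 3 p63alphaKO libraries were nearly alike and all lay below the lowest WT library. Their SD of 1.38 CPM was under the 3.43 CPM that counting alone would give, against an SD of 19.0 CPM in WT. The log2 fold change was -0.67 (SE 0.23, 95% interval -1.17 to -0.17, adjusted p = 0.169), which did not pass the test, and it was not called in any of the 16 alternatives, with an adjusted p between 0.0636 and 0.469. Groups that did not overlap, with p63alphaKO lower, were found for 2 of the 9 tested genes, Id2 and Id4, and for 13.4% of all tested genes. The annotation has exons of A330033J07Rik and Gm49291 on the strand opposite Id4, and A330033J07Rik was at 0 in all 6 libraries.

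Id3 (chromosome 4, 136143497 to 136145755, plus strand), a target that responds early to BMP, was at 129, 141 and 38.7 CPM in the WT libraries, against 136, 127 and 88.9 CPM in the p63alphaKO libraries. WT replicate 3 stood below the other 5 libraries. The log2 fold change was 0.37 (SE 0.37, 95% interval -0.42 to 1.16, adjusted p = 0.694), and without WT replicate 3 it was -0.22. Id1 (chromosome 2, 152736251 to 152737410, plus strand), the Id gene most often used as a readout of BMP signalling, was at 40.1, 27.0 and 20.8 CPM in the WT libraries, against 27.7, 27.4 and 21.8 CPM in the p63alphaKO libraries. The groups overlapped, and WT replicate 1 was the highest library. Its log2 fold change of -0.15 had a 95% interval of -0.75 to 0.45 (adjusted p = 0.860), so a change of up to 1.37-fold up or to 0.596 of the WT level lies within it.

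**Figure D3:**
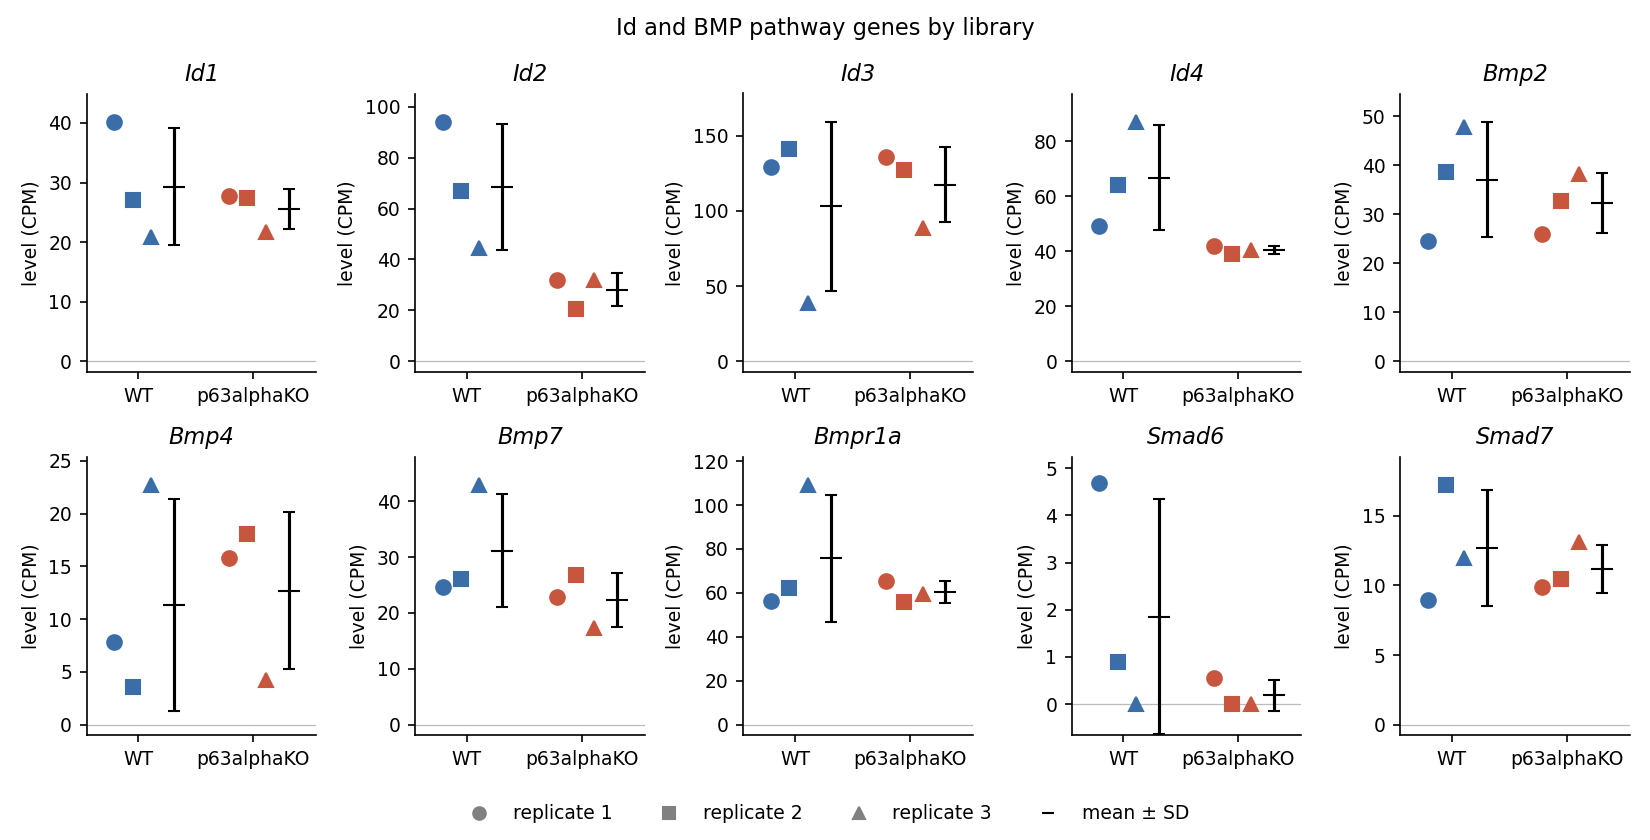
Level in CPM (vertical axes, a separate scale for each gene) of the 10 genes in each library, with the shape giving the replicate and black bars the mean ± SD of the 3 libraries. The groups do not overlap for Id2 and Id4, and WT replicate 3 is the lowest library for Id3 (38.7 CPM) and the highest for Id4, Bmp2, Bmp4, Bmp7 and Bmpr1a.

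The make-up of the Id reads differed in the share of Id2, a ratio within each library that no rescaling can alter. This measure was chosen after the values were seen. The 4 genes summed to 313, 299 and 191 CPM in WT and to 237, 214 and 183 CPM in the p63alphaKO libraries, which overlap. Id2 made up 30.1%, 22.3% and 23.3% of that sum in WT replicates 1, 2 and 3, and 13.5%, 9.65% and 17.4% in p63alphaKO replicates 1, 2 and 3. The means were 25.2% ± 4.21 and 13.5% ± 3.89 (SD, n = 3 each), with every p63alphaKO library below every WT library. The exact two-sided permutation test gave p = 0.1, the smallest value that 3 libraries against 3 allow, so it cannot pass the threshold. The share of Id1 was 10.9% ± 1.90 and 12.1% ± 0.584, and its groups overlapped. Id3 made up 36.3% ± 14.1 of the sum in WT and 55.1% ± 5.75 in p63alphaKO, again without overlap (exact permutation p = 0.1), while Id4, at 27.6% ± 15.8 and 19.3% ± 2.46, overlapped. Shares of 1 sum are tied to each other, so the Id3 share is no result separate from that of Id2. In CPM the Id3 groups overlapped.

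**Figure D4:**
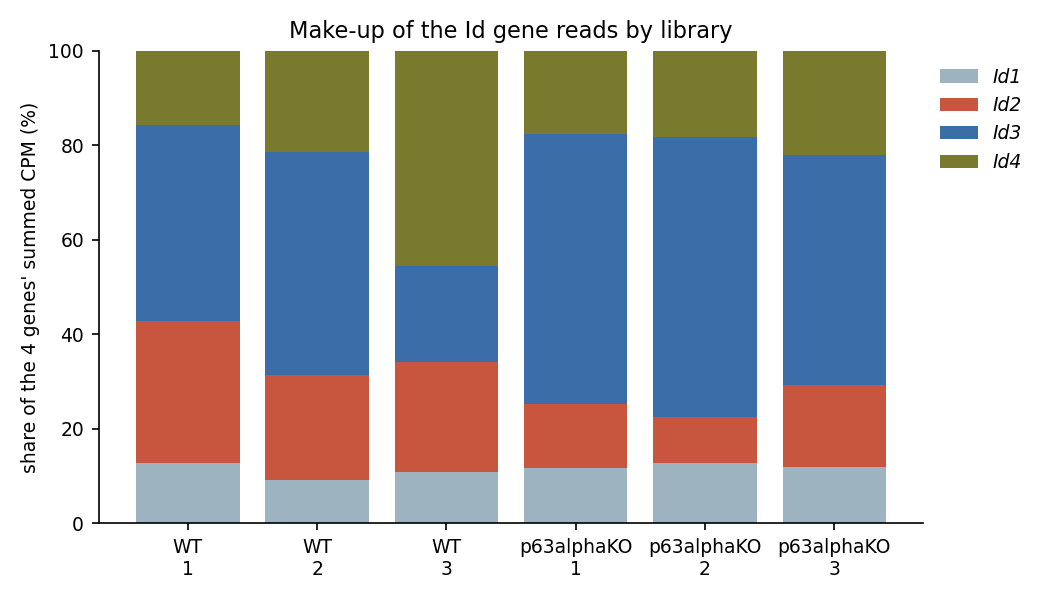
Share of the summed CPM of Id1, Id2, Id3 and Id4 (vertical axis, percent) taken by each gene in each of the 6 libraries. The Id2 share is between 22.3% and 30.1% in WT and between 9.65% and 17.4% in p63alphaKO, and WT replicate 3 has the largest Id4 share.

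The 3 ligand genes showed no called change, and WT replicate 3 was the highest library for each. Bmp2 (chromosome 2, 133552159 to 133562885, plus strand), a ligand made in the hair placode and in differentiating epidermis, was at 24.6, 38.6 and 47.9 CPM in the WT libraries, against 26.0, 32.6 and 38.2 CPM in the p63alphaKO libraries. The groups overlapped over most of their range (log2 fold change -0.16, 95% interval -0.75 to 0.43, adjusted p = 0.840). Bmp7 (chromosome 2, 172868012 to 172940321, minus strand), which pairs with BMP2 or BMP4 into heterodimers, was at 24.6, 26.1 and 42.8 CPM in the WT libraries, against 22.9, 26.8 and 17.3 CPM in the p63alphaKO libraries (log2 fold change -0.44, 95% interval -1.06 to 0.17, adjusted p = 0.505). Apart from WT replicate 3 and p63alphaKO replicate 3, its 4 other libraries lay between 22.9 and 26.8 CPM.

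Bmp4, in skin a ligand largely of the mesenchyme under the epidermis (chromosome 14, 46383520 to 46390669, minus strand), varied most within the groups among the 9 tested genes. It was at 7.79, 3.57 and 22.7 CPM in the WT libraries, against 15.8, 18.1 and 4.18 CPM in the p63alphaKO libraries, on 14 to 72 reads a library. Both groups held low and high libraries, and the log2 fold change of 0.27 had a 95% interval of -1.06 to 1.59 (adjusted p = 0.887). The summed follicle markers, 196, 251 and 361 CPM in WT replicates 1, 2 and 3 and 315, 347 and 302 CPM in p63alphaKO replicates 1, 2 and 3, also overlapped, and their part in the Bmp4 values was not tested. Sox9 was the most abundant of these markers. Exons of Gm15217, at 0 in all libraries, overlap Bmp4 on the other strand.

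Bmpr1a, the type I receptor gene on chromosome 14 (34410734 to 34503341, minus strand), was at 56.1, 62.3 and 109 CPM in the WT libraries, against 65.5, 55.9 and 59.7 CPM in the p63alphaKO libraries. Leaving aside WT replicate 3, the 5 libraries lay between 55.9 and 65.5 CPM. The log2 fold change was -0.26 (95% interval -0.79 to 0.26, adjusted p = 0.668) and 0.026 without WT replicate 3. Exons of Gm17110 lie across from Bmpr1a on the other strand, and Gm17110 was at 0 in all libraries.

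The inhibitory Smad genes were low. Smad7, whose product blocks both the BMP and the TGF-beta receptors, was at 8.96, 17.2 and 12.0 CPM in the WT libraries, against 9.88, 10.5 and 13.1 CPM in the p63alphaKO libraries. The groups overlapped (log2 fold change -0.14, 95% interval -0.95 to 0.68, adjusted p = 0.910). Smad6 (chromosome 9, 63953076 to 64022059, minus strand), whose product acts mainly on BMP receptors and which is strongly expressed in endothelium, was under the minimum for testing. WT replicate 1 had 12 reads, WT replicate 2 had 4 and WT replicate 3 had 0, while p63alphaKO replicate 1 had 2 and the other two had 0. The 2 reads against 16 give a ratio of 0.124 with an exact 95% interval of 0.0138 to 0.526, which covers counting error only. Of the 16, 12 came from WT replicate 1, the library with the highest endothelial sum (53.4 CPM). The part of endothelial cells in the Smad6 reads was not tested. A count of 0 allows up to 0.944 CPM in WT replicate 3. In the fit without a filter the log2 fold change of Smad6 was -0.93 (limma adjusted p = 0.542).

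Of 77 other genes of the pathway, 43 were tested, and limma called 0 higher and 3 lower, beside 1.18% of all tested genes called lower. The 3 were Fstl1, Fstl3 and Tcf4. Of the 43 fold changes, 19 lay above and 24 below 0, with a median of -0.12. At an unadjusted p under 0.05, 2 were higher and 9 lower, beside 15.6% of all tested genes in either direction. EdgeR and DESeq2 called 0 higher and 4 lower each, beside 0.817% and 2.21% of all tested genes called lower. In the list of extracellular antagonists and modulators, 2 of 7 tested genes fell and 5 were not called. Fstl1 (chromosome 16, 37776873 to 37836514, plus strand), a secreted glycoprotein known to bind BMP ligands and made by mesenchymal cells, was at 215, 105 and 99.8 CPM in the WT libraries, against 14.4, 32.6 and 14.9 CPM in the p63alphaKO libraries. The groups lay far apart, at -2.71 on the log2 scale with an SE of 0.33 (adjusted p = 0.000748), or 6.54-fold lower, and it was called in all 16 alternatives. The highest library of each group, WT replicate 1 and p63alphaKO replicate 2, was also the one with the highest fibroblast sum, while the order of the other two WT libraries differed. Fstl3 (chromosome 10, 79777272 to 79782630, plus strand), a follistatin relative that binds activins and some BMPs, was at 48.3, 53.8 and 74.9 CPM in the WT libraries, against 27.7, 21.3 and 25.1 CPM in the p63alphaKO libraries. It fell by 1.21 on the log2 scale (SE 0.24, adjusted p = 0.0192). Fstl3 was highest in WT replicate 3 and lowest in p63alphaKO replicate 2, an order other than that of the fibroblast sum. The part of fibroblasts in the Fstl1 and Fstl3 values was not tested. The Fstl3 call was lost without WT replicate 3 (adjusted p = 0.0615) and without p63alphaKO replicate 1, 2 or 3 (0.0590, 0.0880 and 0.0860). Exons of Prss57, at 0 in all libraries, overlap Fstl3 on the other strand.

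The remaining antagonists were not called. Fst, which encodes follistatin, was at 140, 86.9 and 31.8 CPM in the WT libraries, against 102, 72.2 and 80.5 CPM in the p63alphaKO libraries (adjusted p = 0.858), with WT replicate 3 lowest, as it was for Id3. Sostdc1, an inhibitor of BMP and Wnt ligands in the follicle, was at 58.5, 61.6 and 136 CPM in the WT libraries, against 92.0, 88.5 and 61.4 CPM in the p63alphaKO libraries (adjusted p = 0.994). Noggin and chordin, the classical antagonists, gave few or no reads, with Nog at most at 1.56 CPM and Chrd at 0 in all 6 libraries. Nbl1, another inhibitor of BMP ligands, had groups that did not overlap and a log2 fold change of -1.84 (adjusted p = 0.0620); it was called by edgeR and DESeq2. Twsg1, a chordin partner, also had no overlap, at -0.68 (limma adjusted p = 0.114). A lack of overlap, lower in p63alphaKO, was found for 13.4% of all tested genes.

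Of the genes for Id partners and other basic helix-loop-helix factors, 5 of 7 were tested and 1, Tcf4, was called, beside 1.18% of all tested genes called lower. Tcf4, an E protein that Id proteins bind, was at 385, 208 and 251 CPM in the WT libraries, against 128, 123 and 89.5 CPM in the p63alphaKO libraries. It fell by 1.27 on the log2 scale (SE 0.23, adjusted p = 0.0103), 2.41-fold, with no overlap between the groups. Its order was that of the fibroblast sum in WT. In p63alphaKO the orders differed, with replicate 1 highest in Tcf4 and replicate 2 in the fibroblast sum. The part of fibroblasts in the Tcf4 values was not tested. The Tcf4 call was lost without p63alphaKO replicate 3 (limma adjusted p = 0.0892). The other E protein genes, Tcf3 and Tcf12, were not called, at -0.39 (limma adjusted p = 0.558) and -0.42 (limma adjusted p = 0.311) on the log2 scale. The groups of Tcf12 did not overlap, which, lower in p63alphaKO, held for 13.4% of all tested genes. Max, the partner of Myc, lay at 0.16 (adjusted p = 0.748).

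The parts of the pathway between receptor and target showed no called change. In 5 lists (other BMP receptors, receptor Smads with Smad4, intracellular regulators, other BMP targets and the TGF-beta branch), 31 of 46 genes were tested and 0 were called by limma, edgeR or DESeq2, while 2 were higher and 3 lower at an unadjusted p under 0.05. These counts are near the shares over all tested genes, 1.65% called and 15.6% at an unadjusted p under 0.05, and single out nothing in these lists. Bmpr2, the main type II receptor gene for BMPs, was at 96.2 ± 14.2 CPM in the WT libraries against 102 ± 6.32 CPM in the p63alphaKO libraries (log2 fold change 0.093, adjusted p = 0.869). Neo1, a receptor that binds BMP co-receptors, lay at -0.42 on the log2 scale (adjusted p = 0.590). Smad5 was at 58.6 ± 1.86 and 69.1 ± 13.9 CPM and Smad4 at 49.1 ± 7.95 and 57.8 ± 10.1 CPM (log2 fold change 0.21 with adjusted p = 0.684 for Smad5, and 0.23 with 0.680 for Smad4), while Smad9 was at 0 in all 6 libraries.

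Tob1, which encodes a repressor of BMP Smads, lay at 0.27 on the log2 scale (adjusted p = 0.566), and Ppm1a, a phosphatase of receptor Smads, at -0.010 (adjusted p = 0.989), which turned to 0.095 and 0.13 with TMM and upper quartile scaling. Among other genes known to respond to BMP in ectoderm, Gata3 was at 193 ± 34.8 and 231 ± 42.3 CPM and Ovol1 at 194 ± 8.55 and 206 ± 54.0 CPM (adjusted p = 0.583 and 0.941). Among the 10 other BMP targets, 5 were tested, 2 with fold changes above 0 and 3 below. Dlx5 was lower in every p63alphaKO library without being called (log2 fold change -0.91, limma adjusted p = 0.216). Groups without overlap, lower in p63alphaKO, were found for 13.4% of all tested genes. Under the minimum for testing, Msx1 and Atoh8 were also lower in every p63alphaKO library, while Msx2, Hey1 and Runx2 overlapped. In the TGF-beta branch Acvr1b lay at 0.066 on the log2 scale (adjusted p = 0.938). Smad3, a receptor Smad of TGF-beta and activin, was at 26.9, 35.7 and 16.7 CPM in the WT libraries, against 39.0, 40.8 and 45.0 CPM in the p63alphaKO libraries. All p63alphaKO libraries lay above all WT libraries, and the test was not passed (log2 fold change 0.69, adjusted p = 0.232). None of the 10 other BMP family ligands reached the minimum. The 2 most abundant, Bmp3 and Gdf10, were at 8.04 ± 8.85 and 2.99 ± 1.83 CPM in the WT libraries, against 4.62 ± 4.69 and 0.853 ± 1.02 CPM in the p63alphaKO libraries. Bmp5 was at 5.46, 3.80 and 1.89 CPM in the WT libraries and at 0 in every p63alphaKO library, where 0 allows up to 0.895 CPM. Gdf11 was also lower in every p63alphaKO library, while Bmp3, Gdf10, Bmp6 and Bmp8a overlapped. The other 4 were at 0 in all libraries.

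**Figure D5:**
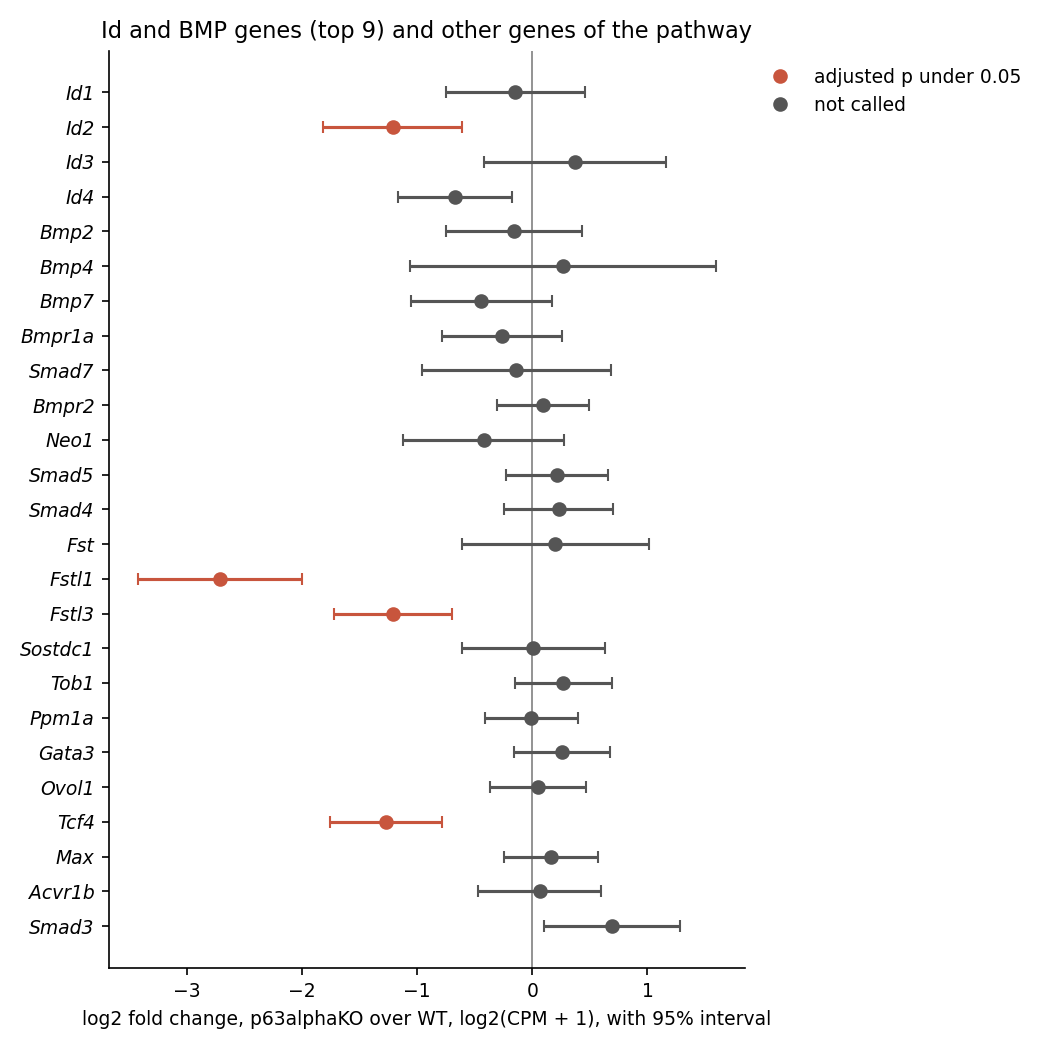
Log2 fold change of p63alphaKO over WT (horizontal axis, log2(CPM + 1) scale) with its 95% interval for the 9 tested Id and BMP genes (top) and other named genes of the pathway, red where the adjusted p was under 0.05. Id2, Fstl1, Fstl3 and Tcf4 are red and lie below 0, and the widest interval is that of Bmp4.

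Profiles over the 6 libraries were compared with those of Id3 and Bmp2, the Id gene and the ligand gene with the most reads. Each log2 profile was centred on its own mean, and likeness was the root mean square difference over the 6 libraries among genes averaging 50 CPM or more. Of 3008 genes, Srf, Csrnp1, Klf6, Nr4a1 and Fhl2 lay closest to Id3, at 0.22, 0.22, 0.24, 0.28 and 0.29 log2 units. Each of the 5 was lowest in WT replicate 3, where Klf6 was at 477 CPM against 1028 to 1268 CPM elsewhere. Of 3009 genes, Fam83g, Clcn5, Crybg3, Stard10 and BC005537 lay closest to Bmp2, at 0.089, 0.099, 0.12, 0.12 and 0.13 log2 units, and Fam83g was at 145, 187 and 254 CPM in the WT libraries against 146, 190 and 211 CPM in the p63alphaKO libraries.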

How the data were processed

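Reads from the 3' ends of mRNAs were aligned and counted by the authors with STAR and HTSeq on mm10, per the submitters' processing notes; for versions, annotation and strand setting the sources used here say nothing. The deposited values, in a table named as normalized counts, are CPM: each column sums to between 999157 and 999401. Whole reads were recovered from the CPM steps (100% of values within 0.0055 CPM), and 3 reads, the limit that a count of 0 allows, stood for 0.670 to 1.17 CPM. The exact interval of the Smad6 read ratio and the limits for counts of 0 cover counting error only. The intervals of fold changes come from the limma fit and rest on the spread between libraries.

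The fit was limma-trend on log2(CPM + 1) for 7464 genes averaging 10 CPM or more (R 4.3.3 with limma 3.58.1), genotype as the only term, two-sided, with Benjamini-Hochberg adjustment and calls at an adjusted p under 0.05. The log2 scale with a pseudocount understates the change of low genes. Alternatives were other pseudocounts, filters and scalings, edgeR 4.0.16 and DESeq2 1.42.0 on the recovered reads, a replicate block, and leaving out each library. The limma fit was also run on simulated independent counts without a shift in cell make-up, so that run says nothing on the scaling. The genes and lists were chosen with earlier results of these data known. Named were the 10 genes, and each called gene and the 2 most abundant of each pathway list. Also named were the 5 genes with profiles nearest to the most abundant Id and ligand gene. Nog, Chrd, Nbl1, Twsg1, Smad9, Tcf3, Tcf12, Dlx5, Msx1, Atoh8, Msx2, Hey1, Runx2, Bmp5, Bmp6, Bmp8a and Gdf11 were named after their values were seen. The single immune and follicle markers were too. Of the 30386 gene IDs, 30271 matched GENCODE M21 (mm10), the source of gene positions. Promoters are from RefSeq (GRCm38.p6).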

Additional observations from a re-analysis of the deposited data

How the results depend on the processing

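Among the 10 Id and BMP genes the count of calls was 1, Id2 in each case, with a pseudocount of 0.5 or 5, a minimum of 1 CPM, DESeq2 and the replicate block, and 0 without a filter, with a minimum of 50 CPM (under which Id2 was not tested), with TMM or upper quartile scaling and with edgeR; with 1 library left out it was 0 to 1. The count of other pathway genes called was 1 to 3 with 1 library left out. The median log2 fold change of the tested Id and BMP genes went from -0.42 (without WT replicate 1) to -0.20 with 1 library left out. The count of all called genes was 256 with a minimum of 1 CPM, 36 with a minimum of 50 CPM, where fewer genes were tested, 82 with edgeR, 317 with DESeq2, and 38 to 179 with 1 library left out. Over all tested genes the median, -0.085 as a log2 fold change, shifted with scaling to 0.020 (TMM) and 0.050 (upper quartile), and the lower share of the calls went from 71.5% to 58.0% and 48.1%.

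The sign turned with 1 library left out for some genes without a call, whose other extremes were -0.36 for Id1, 0.69 for Id3, 0.86 for Bmp4, -0.45 for Bmpr1a, -0.35 for Smad7, 0.16 for Bmpr2, 0.67 for Fst, 0.40 for Sostdc1, -0.14 for Ppm1a, 0.23 for Ovol1 and 0.28 for Acvr1b. It turned without WT replicate 1 Id1 (0.099), Bmpr2 (-0.034), Sostdc1 (-0.20) and Ppm1a (0.0088); without WT replicate 2 Bmp4 (-0.29), Smad7 (0.089), Sostdc1 (-0.16) and Ppm1a (0.10); without WT replicate 3 Id3 (-0.22), Bmp2 (0.047), Bmpr1a (0.026) and Fst (-0.39). Without p63alphaKO replicate 1 it turned for Sostdc1 (-0.095) and Acvr1b (-0.10), without replicate 2 for Bmp4 (-0.076) and Sostdc1 (-0.067), and without replicate 3 for Ppm1a (0.081) and Ovol1 (-0.15). Ppm1a was also positive with TMM (0.095), upper quartile (0.13), edgeR (0.054) and DESeq2 (0.068). Bmp4 fell under the minimum without WT replicate 3. The cause was not tested.

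No pairing by replicate number was seen: the deviations of same-numbered libraries from their group means had correlations of -0.023, 0.066 and -0.11. This check, on 3 libraries a group, cannot show that the design was unpaired. With the replicate block Id2 had an adjusted p of 0.0404 and 127 genes were called in all. At this depth, changes of Smad6, at 16 reads in WT, could hardly be seen.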
